A study of Mus musculus with 12 samples.

Results

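The cytosolic ribosomal proteins are the protein components of the ribosome that translates nuclear-encoded mRNAs. Their genes were taken here by symbol, as rows named Rpl or Rps followed by a number, Rplp0 to Rplp2 and Rpsa, with at least 10 reads summed over all libraries. Of 22609 gene rows, 81 had such a symbol and 77 had enough reads. Rpl10l and Rpl26 had 0 reads, Rps23 had 4 and Rpl39l had 8. A further 2, Rpl3l (42 reads) among them, were too low for testing, which left 75 of the 77 genes among the 13684 genes tested: 41 of the large subunit, 31 of the small subunit and the 3 of the P stalk.

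The data are read counts from RNA sequencing of whole liver of 12 untreated adult mice. Heterozygous carriers of Alb/AEG-1 and of Alb/c-Myc were bred together, and 3 offspring of each of the 4 genotypes were sampled: wild type (WT), AEG-1 transgenic (AEG1), c-Myc transgenic (MYC) and carriers of both (AEG1_MYC). The labels state neither sex, exact age nor litter, and do not say from which species the transgenes come. The albumin promoter, which both lines use, is active in hepatocytes. AEG-1, encoded by Mtdh in the mouse, is an RNA-binding and scaffold protein, and c-Myc is a transcription factor that drives cell growth. The series asks how they act together in liver tumour formation.

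Each ribosome has a small subunit that decodes the mRNA and a large subunit that forms peptide bonds, and the P stalk of the large subunit recruits the translation factors. The cell needs most of the subunit proteins in equal amounts, and their mRNAs are produced at high and coordinated levels. Many of these mRNAs begin with a run of pyrimidines, the TOP motif, through which mTOR signalling controls their translation. c-Myc is known to raise ribosome production, both by binding E-boxes (CACGTG) near such genes and by raising rRNA synthesis.

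The region around the transcription start is where both features would lie. RefSeq promoter windows (GRCm38.p6, 250 bases before to 50 bases after the start) were found for 57 of the 77 genes. Rpl32 and Rps20, which pass the adjustment for the c-Myc transgene below, were among those without a window and could not be searched. A run of 7 or more C or T within 20 bases of the start, on the gene's strand, was present in 36 of the 57 (63.2%) and in 27.5% of all 27025 genes with a window. Stretches of 30 bases from 6 genes with such a run at or close to the annotated start are shown as examples of this feature, with the run in capitals. They were taken in order of p for the c-Myc transgene from the genes with a run there. Each stretch begins 10 bases before the start, except that of Rpl4, which begins 18 bases before it. The marked run of Rpl4 ends before the annotated start, that of Rpl13a begins after it, and the other 4 span it.
Rpl13a, chr7:45128726-45128755, minus strand: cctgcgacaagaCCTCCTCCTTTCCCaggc
Rps21, chr2:180257369-180257398, plus strand: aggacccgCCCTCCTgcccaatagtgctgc
Rps24, chr14:24490668-24490697, plus strand: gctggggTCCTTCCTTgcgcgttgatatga
Rps9, chr7:3704031-3704060, plus strand: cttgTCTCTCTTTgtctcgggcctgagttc
Rpl4, chr9:64173369-64173398, plus strand: TCTTTCCTTTTCCTgtgggagcagccgggt
Rplp2, chr7:141447641-141447670, plus strand: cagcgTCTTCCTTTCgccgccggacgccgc

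The E-box CACGTG, which reads the same on both strands, lay in the windows of 6 of the 57 genes (10.5%), Rpl13a, Rpl14, Rpl19, Rpl23, Rpl34 and Rps19, against 8.09% of all genes. The other motifs were searched on both strands. GGGCGG, the core of a GC box, was present in 35 (61.4%, against 38.2% of all genes), and TATAAA in 6 (10.5%, against 15.7%). CCGGAAG, a form of the ETS and GABP site, was present in 24 (42.1%, against 9.93%), and ATGGCGG, the core of the YY1 site, in 10 (17.5%, against 4.69%). These shares describe letters in a window and say nothing of binding. Stretches around the E-box are given for the 3 genes with the lowest p for the c-Myc transgene among the 6, and around CCGGAAG for the 2 with the lowest p among its 24, with the motif, or its reverse complement CTTCCGG, in capitals.
Rpl13a, chr7:45128900-45128985, minus strand: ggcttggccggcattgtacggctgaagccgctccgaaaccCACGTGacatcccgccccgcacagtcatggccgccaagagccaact
Rps19, chr7:24884753-24884838, plus strand: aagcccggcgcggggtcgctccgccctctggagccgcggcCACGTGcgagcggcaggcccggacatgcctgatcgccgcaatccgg
Rpl23, chr11:97782420-97782482, minus strand: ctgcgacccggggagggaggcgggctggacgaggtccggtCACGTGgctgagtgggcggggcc
Rps21, chr2:180257266-180257322, plus strand: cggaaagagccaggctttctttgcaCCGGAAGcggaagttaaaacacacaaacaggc
Rps7, chr12:28635944-28635992, minus strand: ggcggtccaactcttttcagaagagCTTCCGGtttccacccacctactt

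Each library held 21931197 to 40552316 reads in genes. Myc checked the c-Myc labels: it stood at 2.26 to 4.73 CPM (reads relative to the TMM-scaled total of the library) in the 6 WT and AEG1 libraries and at 23.4 to 165 CPM in the 6 MYC and AEG1_MYC libraries, with no overlap. Mtdh stood at 93.0 to 101 CPM in AEG1 against 99.4 to 102 CPM in WT livers and so does not check the AEG-1 labels. No label says whether replicates share a litter or a day, so p-values measure only the spread between these mice.

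Only reads that aligned at 1 place were counted, which matters here because most ribosomal protein genes have processed pseudogenes. Of the 77 genes, 75 share at least one 50-base stretch of their mRNA with an annotated pseudogene (GENCODE M21). The share of 50-base stretches found in no other annotated transcript was 1.35% (Rps27) to 100%, with a median of 46.4%. In the 12 libraries, 46.5% to 58.0% of all tabulated counts were multiple alignments and belong to no gene. A read that aligned at several places may be counted there more than once, so this is not a share of reads. CPM values therefore understate these mRNAs to an extent that differs by gene, and levels are compared between libraries only, never between genes. For Rpl26, whose mRNA is 28.7% unique by this measure, the 0 reads allow at most 3 of the 375247916 gene reads, a limit on uniquely aligned reads and not on the mRNA. Rps27 (1.35% unique, 204 reads) and Rpl10 (7.87% unique, 1376 reads) are less unique and had more reads, and why Rpl26 had none was not tested. Rpl10l, a retrogene known from testis, also had 0 reads, with 92.4% of its mRNA unique.

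Ribosomal protein mRNAs were higher in livers with the c-Myc transgene, with or without AEG-1, and lay close to the WT values in livers with AEG-1 alone. Their summed share of all gene reads was 0.236%, 0.213% and 0.199% in the WT libraries, 0.225%, 0.216% and 0.234% in AEG1, 0.278%, 0.366% and 0.328% in MYC, and 0.284%, 0.450% and 0.311% in AEG1_MYC. The means were 0.216% ± 0.0187 (SD, n = 3) in WT livers, 0.225% ± 0.00919 in AEG1, 0.324% ± 0.0439 in MYC and 0.349% ± 0.0890 in AEG1_MYC. Every library with the c-Myc transgene lay above every library without it. AEG1_MYC replicate 2 was the highest of the 12, and it also had the highest Myc (165 CPM), whose part in the result was not tested. Exact binomial 95% intervals, which cover counting error only, were at most 0.0025 percentage points to each side.

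The median over the genes again put the libraries with the c-Myc transgene above those without it. The median over the 75 genes of the log2 difference from the WT mean was 0.06, 0.05 and -0.12 in the WT libraries and 0.02, 0.04 and 0.03 in AEG1. It was 0.30, 0.62 and 0.46 in MYC and 0.34, 0.80 and 0.41 in AEG1_MYC. In single MYC or AEG1_MYC libraries 66 to 71 of the 75 genes stood above their WT mean, against 14 to 53 in single WT libraries and 42 to 46 in AEG1. The same median over all tested genes stayed between -0.01 and 0.01 in the 12 libraries, which the TMM scaling itself tends to bring about. Over the mitochondrial ribosomal proteins, which build the separate ribosome of the mitochondrion, it ran from -0.07 to 0.16, and over subunits of the respiratory chain from -0.12 to 0.09. In whole liver, a change in the cells that hold an mRNA and a change in the mRNA per cell cannot be told apart.

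**Figure D1:**
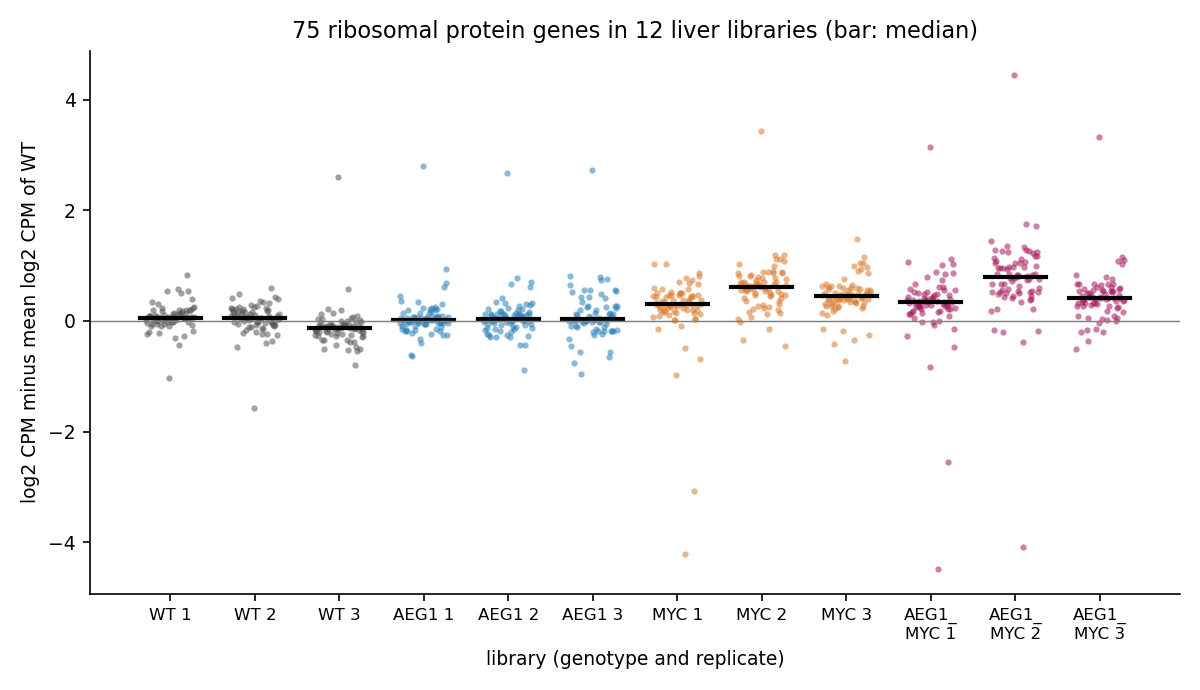
Each point is 1 of 75 ribosomal protein genes in 1 library, as log2 CPM minus the mean log2 CPM of the 3 WT libraries; black bars are medians. The bars lie between -0.12 and 0.06 in WT and AEG1 libraries and between 0.30 and 0.80 in MYC and AEG1_MYC libraries, and the few points far from the rest belong to Rps2, Rps18 and Rps3a.

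Markers of other cells were read beside this. The summed CPM of 7 hepatocyte markers was 113000 to 123000 in WT livers, 90900 to 98300 in AEG1 livers, 76800 to 93400 in MYC livers and 50800 to 86300 in AEG1_MYC livers. Summed CPM of 7 Kupffer cell markers was 170 to 589 in WT and 118 to 846 in AEG1_MYC, and that of 4 B cell markers stayed at 7.21 or less in every library. The 4 neutrophil markers reached 58.2 CPM in an AEG1_MYC library and at most 3.63 in the other genotypes. The 5 bile duct markers summed to 41.8 to 75.5 CPM in WT, 62.1 to 82.0 in MYC and 27.7 to 71.7 in AEG1_MYC. Stellate cell markers (5 genes) were lowest in AEG1_MYC, at 92.6 to 111 CPM against 136 to 169 in WT. Sums of the 6 T and NK cell markers were at most 5.27 CPM in any library, and those of the 6 endothelial markers were 219 to 324 CPM. The 4 erythroid genes summed to 79.8 to 364 CPM, with 2 of them at 0 in all libraries, the only markers of these lists for which that was so. Hepatocyte marker sums were thus lower than in WT in AEG1, MYC and AEG1_MYC, and lowest (50800 CPM) in AEG1_MYC replicate 2, the library with the highest ribosomal protein share. Most of each sum was Alb, with a mean of 87300 CPM in WT and 39900 in AEG1_MYC. The 7 markers did not all share its direction. In AEG1_MYC against WT, the log2 fold change (± SE) was -1.13 ± 0.28 for Alb, -0.83 ± 0.96 for Serpina1c and -0.71 ± 0.22 for Ttr. Apoa1 gave -0.27 ± 0.21 and Apob -0.05 ± 0.17. Cyp2e1 (0.35 ± 0.23) and Tat (0.10 ± 0.60) were the 2 of the 7 above 0. The part of these markers in the result was not tested.

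MYC against WT shows the c-Myc transgene alone. The median log2 fold change of the 75 genes was 0.48, a fold of 1.39, against 0.00 for all tested genes, and 71 of the 75 lay above 0 (94.7%, where 49.4% of all tested genes did). All 3 MYC libraries lay above all 3 WT libraries for 45 genes (60.0%, where 5.47% of all tested genes did so), and an unadjusted p under 0.05 with a higher level was reached by 40 (53.3%, against 1.84% of all genes). None of the 75 passed an adjusted p of 0.05 over all genes in edgeR's quasi-likelihood test, where the call rate of all genes was 0%, and the lowest adjusted p was 0.661 (Rpl32). DESeq2 called 6 of them (28 of all genes), Rpl13a, Rpl32, Rps3 and Rps19 included, and limma 0 (0 of all genes). Among the 5 with the lowest p in edgeR were Rpl32 (0.61 ± 0.12), Rpl13a (0.61 ± 0.13) and Rps20 (0.56 ± 0.13). Without MYC replicate 2, which had the highest levels, the 40 genes became 24.

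AEG1_MYC against AEG1 asks the same of the transgene on the AEG-1 background, in 6 other libraries. The median was 0.50, a fold of 1.41, with 70 of 75 genes above 0 (93.3%, against 51.1% of all genes). No overlap with a higher level was seen for 46 genes (61.3%, against 9.60% of all genes), and 44 had an unadjusted p under 0.05 and a higher level (58.7%, against 10.1%). Again 0 passed the adjustment in edgeR (0.322% of all genes did), with a lowest adjusted p of 0.0771. DESeq2 called 22 (700 of all genes) and limma 0 (58 of all genes). With AEG1_MYC replicate 3 as the only AEG1_MYC library the 44 became 23. The lowest p were those of Rps20 (0.62 ± 0.13), Rpl13a (0.64 ± 0.13), Rpl39 (0.95 ± 0.21), Rps24 (0.83 ± 0.18) and Rplp0 (0.96 ± 0.22).

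Because these comparisons share no library, their values can be set side by side, although 1 fit gave the error of both. In both, 68 of the 75 genes (90.7%) lay above 0, where 26.1% of all tested genes did. In both, 32 (42.7%) had an unadjusted p under 0.05 and a higher level, where 0.753% of all genes did. The 7 genes below 0 in either were Rpl9, Rpl10, Rpl23a, Rpl24, Rpl30, Rps2 and Rps13, all but Rps2 with a mean of 3.64 CPM or less over the 12 libraries.

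**Figure D2:**
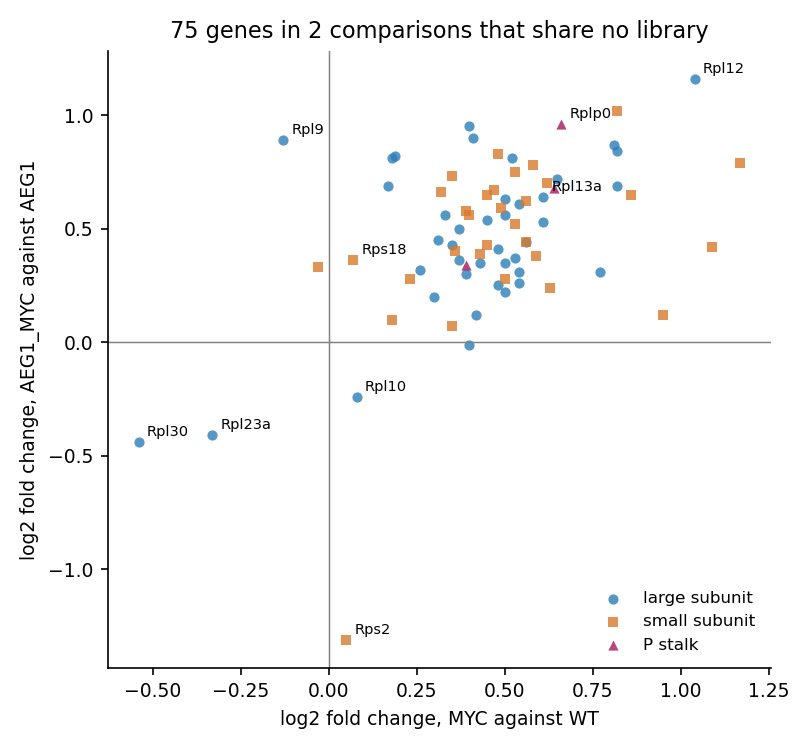
Each point is 1 of 75 ribosomal protein genes: x, log2 fold change of MYC against WT; y, log2 fold change of AEG1_MYC against AEG1, marked by subunit. In 68 genes both values are above 0, Rpl23a and Rpl30 are below 0 on both axes, and Rps2 stands apart at -1.31 on the y axis.

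The average of the 2 comparisons, which sets the 6 mice with the c-Myc transgene against the 6 without it within each AEG-1 background, gave the smallest errors. The median was 0.49, a fold of 1.4, against 0.00 for all genes, with 71 of 75 above 0 (94.7%, against 50.6%). All 6 libraries with the transgene lay above all 6 without it for 32 genes (42.7%, against 0.687% of all genes), and 52 had an unadjusted p under 0.05, all higher (69.3%, against 6.53%). By structure the medians were 0.44 for the large subunit, 0.50 for the small subunit and 0.66 for the 3 stalk genes. By uniqueness they were 0.49 for the 31 tested genes with at least 50% unique stretches, all 31 above 0, and 0.49 for the other 44, of which 40 were above 0. By depth they were 0.49 for the 46 genes with a mean of at least 100 reads per library and 0.50 for the 29 below that.

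Only 3 genes rose at an adjusted p under 0.05 over all genes (edgeR; 0.110% of all genes were called, 15 in number). Rpl13a, a large subunit protein that also takes part in translational silencing of inflammatory mRNAs, stood at 79.9, 72.8 and 76.3 CPM in WT livers, 78.1, 73.9 and 76.8 in AEG1 livers, 105, 140 and 105 in MYC livers and 101, 136 and 119 in AEG1_MYC livers. The 6 libraries with c-Myc lay above the other 6 by a gap from 79.9 to 101 CPM. The change was 0.63 ± 0.10 (log2, SE; fold 1.54, adjusted p = 0.0468, edgeR).

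Rpl32, a large subunit protein often used as a reference gene, stood at 37, 37.2 and 33.4 CPM in WT livers, 37.4, 38.1 and 34.6 in AEG1 livers, 48.5, 61.6 and 53.6 in MYC livers and 45.5, 60.8 and 52.4 in AEG1_MYC livers (0.57 ± 0.09, fold 1.48, adjusted p = 0.0468, edgeR). Rps20, of the head of the small subunit, stood at 36.3, 32.9 and 30.5 CPM in WT livers, 33.6, 29.0 and 36.7 in AEG1 livers, 47.0, 54.0 and 46.5 in MYC livers and 45.0, 59.1 and 48.7 in AEG1_MYC livers (0.59 ± 0.09, fold 1.51, adjusted p = 0.0484, edgeR). In both genes the groups with and without c-Myc did not overlap, and WT and AEG1 libraries lay together.

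These calls sit at the threshold. None of the 75 was called without any single WT or AEG1 library or without MYC replicate 2 or 3, 1 was called without MYC replicate 1, 4 without AEG1_MYC replicate 2 and 9 without its replicate 1 or 3. For these fits with a library left out, the count of all genes called was not taken. DESeq2 called 33 of the 75 (305 of all genes) and limma 5 (32 of all genes). The direction and size moved less: the median stayed between 0.42 and 0.53 when any 1 library was left out, and the 52 genes at an unadjusted p under 0.05 were 50 to 54.

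**Figure D3:**
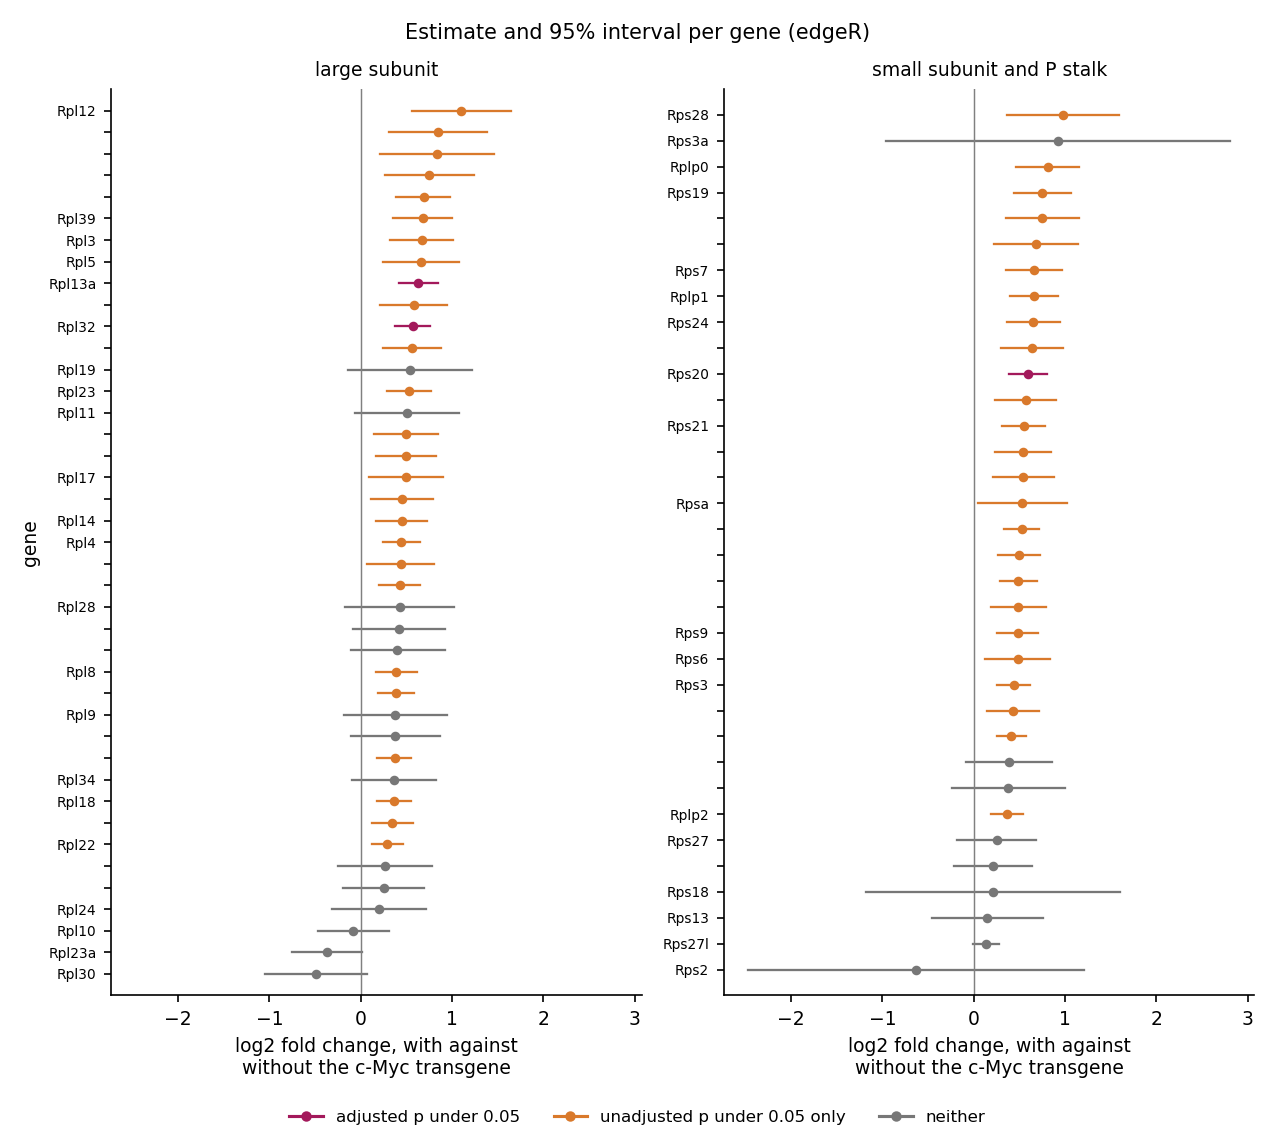
Estimate and 95% interval of the log2 fold change with against without the c-Myc transgene for 75 genes (those named in the text are labelled), sorted within the large subunit (left) and the small subunit with the P stalk (right). Of the 75 estimates 71 lie above 0 and 3 carry the colour of an adjusted p under 0.05 (Rpl13a, Rpl32, Rps20); the intervals of Rps2, Rps3a and Rps18 are the widest.

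The P stalk genes did not pass the adjustment but all 3 separated the groups. Rplp0, the base of the stalk, stood at 108, 111 and 93.9 CPM in WT livers, 102, 106 and 104 in AEG1 livers, 142, 190 and 162 in MYC livers and 135, 283 and 185 in AEG1_MYC livers. All 6 libraries with c-Myc lay above the other 6, AEG1_MYC replicate 2 far above (0.81 ± 0.16, fold 1.75, adjusted p = 0.0822, edgeR). Rplp1 gave 0.66 ± 0.12 (99.5 ± 4.42 CPM in WT livers, 98.9 ± 10.2 in AEG1 livers, 156 ± 24.3 in MYC livers and 158 ± 37.7 in AEG1_MYC livers; SD, n = 3). Rplp2, its partner on the stalk, gave a smaller 0.37 ± 0.08 (17.5 ± 1.74, 17.9 ± 1.01, 23.1 ± 2.66 and 22.6 ± 1.26 CPM in the same order).

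Among the large subunit proteins, Rpl4, which lines the exit tunnel, stood at 399, 409 and 349 CPM in WT livers, 375, 383 and 390 in AEG1 livers, 473, 625 and 512 in MYC livers and 464, 554 and 510 in AEG1_MYC livers. Its groups with and without c-Myc did not overlap (0.44 ± 0.09, adjusted p = 0.111, edgeR). Rpl8, near the peptidyl transferase centre, gave 0.39 ± 0.10, also without overlap. Rpl12 had the highest estimate of the subunit, 1.1 ± 0.24, from 1.48 ± 0.327 CPM in WT and 3.05 ± 1 in MYC (SD, n = 3), on 925 reads in all. Rpl3, of the peptidyl transferase centre, gave 0.67 ± 0.16. Its muscle paralog Rpl3l had 2 to 7 reads in each library.

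Rpl39, a small protein of the exit tunnel, gave 0.68 ± 0.15, with 8.14, 8.06 and 8.54 CPM in AEG1 and 11.4, 21.9 and 14.6 in AEG1_MYC. Rpl22, which has a paralog able to replace it, gave 0.29 ± 0.08. Rpl5 and Rpl11, which can leave the ribosome and bind the p53 regulator MDM2, gave 0.66 ± 0.19 and 0.51 ± 0.26, and for both the groups with and without c-Myc overlapped. Rpl10, which joins the subunit late, gave -0.08 ± 0.18 (3.66 ± 0.609 CPM in WT and 3.86 ± 0.137 in MYC). Rpl23a and Rpl30 had the lowest estimates of the large subunit, -0.37 ± 0.17 and -0.49 ± 0.26, with 14.3% and 23.6% unique stretches. For Rpl23a the MYC libraries (1.87, 2.37 and 2.06 CPM) all lay below the WT libraries (2.87, 2.41 and 2.65 CPM).

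Of the small subunit, Rps3, at the entry of the mRNA, stood at 253, 226 and 212 CPM in WT livers, 234, 228 and 262 in AEG1 livers, 284, 347 and 311 in MYC livers and 316, 325 and 333 in AEG1_MYC livers. The groups with and without c-Myc did not overlap (0.44 ± 0.08, adjusted p = 0.0691, edgeR). Rps28, with 103 reads in all the lowest gene tested, gave 0.98 ± 0.28, with all 6 libraries with c-Myc above the rest. Rps19 and Rps24, both known from the inherited anaemia of Diamond and Blackfan, gave 0.75 ± 0.14 and 0.65 ± 0.13. For Rps19 WT and AEG1 libraries lay at 5.44 to 9.82 CPM and the 6 others at 11.4 to 14.7 CPM.

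Rps6, the target of S6 kinase, gave 0.48 ± 0.16 with overlapping groups: 3.2, 4.48 and 2.22 CPM in WT livers, 3.15, 3.15 and 3.44 in AEG1 livers, 4.08, 4.07 and 4.95 in MYC livers and 5.05, 4.56 and 4.75 in AEG1_MYC livers. The highest library without c-Myc, WT replicate 2, was above 2 MYC libraries. Rpsa, also known as the laminin receptor precursor, gave 0.53 ± 0.22 over 0.726 to 2.17 CPM. Rps27l, the paralog of Rps27 that p53 induces, had a small estimate with a narrow interval, 0.14 ± 0.07 (80.3 ± 4.25 CPM in WT and 90.7 ± 10.2 in MYC). Rps27 itself gave 0.25 ± 0.20 with 0.545 CPM over all libraries.

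**Figure D4:**
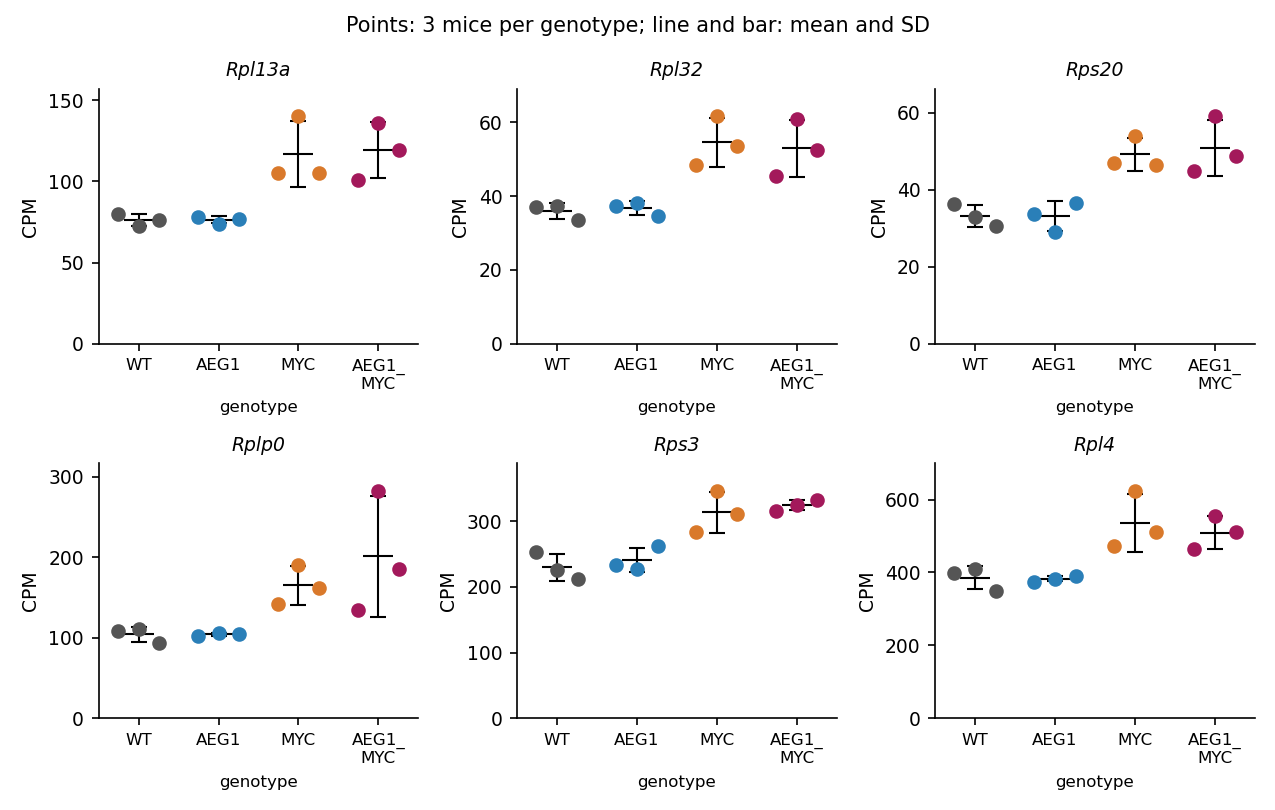
CPM of Rpl13a, Rpl32, Rps20, Rplp0, Rps3 and Rpl4 in 3 mice of each genotype (points), with mean and SD; each axis starts at 0. In all 6 panels the MYC and AEG1_MYC points lie above every WT and AEG1 point, and AEG1 points lie within or beside the WT range.

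None of these genes passed the test with AEG-1 alone. AEG1 against WT had a median of 0.03, with 46 of 75 above 0 (61.3%, against 49.7% of all genes). A higher level without overlap was seen for 4 genes (5.33%, against 5.16% of all genes), a lower one for 3 (4.00%, against 5.53%), so both shares were near those of all genes. None was called by edgeR (0% of all genes), DESeq2 (15 of all genes) or limma (0 of all genes). In edgeR 1 gene had an unadjusted p under 0.05 and a higher level (1.33%, against 1.99% of all genes). Rpl28 (-0.74 ± 0.39) and Rpl11 (-0.70 ± 0.37) had the lowest estimates, and neither reached an unadjusted p under 0.05 in edgeR. For Rpl28 the AEG1 libraries (0.335, 0.437 and 0.251 CPM) all lay below the WT libraries (0.549, 0.651 and 0.47 CPM), and for Rpl11 they overlapped.

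Carriers of both transgenes against WT had a median of 0.54, a fold of 1.46, with 70 of 75 above 0 (93.3%, against 51.6%). There 52 genes were higher without overlap (69.3%, against 9.81% of all genes) and 50 had an unadjusted p under 0.05 and a higher level (66.7%, against 9.66%). edgeR called 0 of the 75 (0.263% of all genes), with a lowest adjusted p of 0.0921. DESeq2 called 23 (652 of all genes) and limma 0 (23 of all genes). Among the 5 with the lowest p were Rpl13a (0.64 ± 0.13), Rps20 (0.62 ± 0.13), Rpl32 (0.56 ± 0.12) and Rps21 (0.68 ± 0.15). AEG1_MYC replicate 2 carried part of this: without it the median was 0.38 and the 50 genes became 35, and with replicate 3 as the only AEG1_MYC library 28.

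Whether AEG-1 adds to c-Myc was read from AEG1_MYC against MYC. The median was 0.07, with 46 of 75 above 0 (61.3%, against 51.3% of all genes), and 0 genes were without overlap in either direction (9.64% of all genes were higher and 8.85% lower). None of the 75 had an unadjusted p under 0.05 in edgeR, DESeq2 or limma (15.2% of all genes did in edgeR). Of the 75, 0 were called by any of them, where edgeR called 0.205% of all genes, DESeq2 451 genes and limma 24. Leaving out AEG1_MYC replicate 1 gave 5 genes at that p, replicate 3 gave 3, and replicate 2 or MYC replicate 1 or 2 gave 1 each. The 95% intervals still allow a difference for single genes, for example -0.27 to 0.32 around 0.02 for Rpl13a. The lowest p belonged to Rpl18 (-0.23 ± 0.12), Rps24 (0.33 ± 0.18), Rpl9 (0.59 ± 0.35), Rpl5 (0.42 ± 0.26) and Rpsa (-0.49 ± 0.31). With AEG1_MYC replicate 3 as the only library of its genotype, Rpl9 turned to -0.09.

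The interaction, which tests whether the c-Myc difference itself depends on AEG-1, had a median of 0.03 with 41 of 75 above 0 (54.7%, against 51.1% of all genes). In edgeR 0 of the 75 were called (0.0219% of all genes) and 0 had an unadjusted p under 0.05 (9.25% of all genes). Both counts were also 0 in DESeq2 and limma, which called 153 and 5 of all genes. Leaving out 1 library gave at most 3 of the 75 at an unadjusted p under 0.05 in edgeR, without AEG1_MYC replicate 3. Among the 5 with the lowest p were Rpl9 (1.01 ± 0.51), Rpl39 (0.55 ± 0.29), Rpsa (-0.83 ± 0.44) and Rpl17 (0.63 ± 0.37), with a lowest adjusted p of 0.571. A joint test of any difference among the 4 genotypes called 0 of the 75 in edgeR (0.519% of all genes), with 45 at an unadjusted p under 0.05 (60.0%, against 12.7% of all genes), and 27 in DESeq2 (730 of all genes). The lowest adjusted p was 0.0687, for Rpl13a.

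Of the 75 genes, 3 split the libraries within genotypes. Rps2, at the mRNA entry of the small subunit, stood at 57.0, 32.5 and 30.3 CPM in WT livers, 32.5, 35.3 and 37.6 in AEG1 livers, 2, 45.5 and 76.5 in MYC livers and 1.65, 2.19 and 38.7 in AEG1_MYC livers. MYC replicate 1 and AEG1_MYC replicates 1 and 2 were low and the other 9 libraries were at 30.3 or more. Rps18, of the small subunit head, stood at 19.6, 8.54 and 7.90 CPM in WT livers, 10.1, 8.06 and 7.41 in AEG1 livers, 1.24, 13.7 and 22.8 in MYC livers and 1.82, 19.6 and 11.4 in AEG1_MYC livers. MYC replicate 1 and AEG1_MYC replicate 1 were low here too, and AEG1_MYC replicate 2 was not. For both genes the low libraries were all among the 6 with the c-Myc transgene, of which the rest were high.

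Rps3a, a small subunit protein near the mRNA exit, stood at 1.04, 0.689 and 13.5 CPM in WT livers, 15.6, 14.2 and 14.8 in AEG1 livers, 1.07, 24.1 and 1.29 in MYC livers and 19.7, 48.5 and 22.4 in AEG1_MYC livers. WT replicates 1 and 2 and MYC replicates 1 and 3 were low, and the other 8 libraries at 13.5 or more. All 6 libraries with AEG-1 were thus high, and so were 2 of the 6 without it. The SD of log2 CPM within genotypes was 1.90 for Rps2, 1.71 for Rps3a and 1.46 for Rps18, and at most 0.50 for the other 72 genes. Their unique shares were 21%, 29.0% and 13.3%. Leaving these 3 out gave a median of 0.49 for the average c-Myc comparison, as with them.

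**Figure D5:**
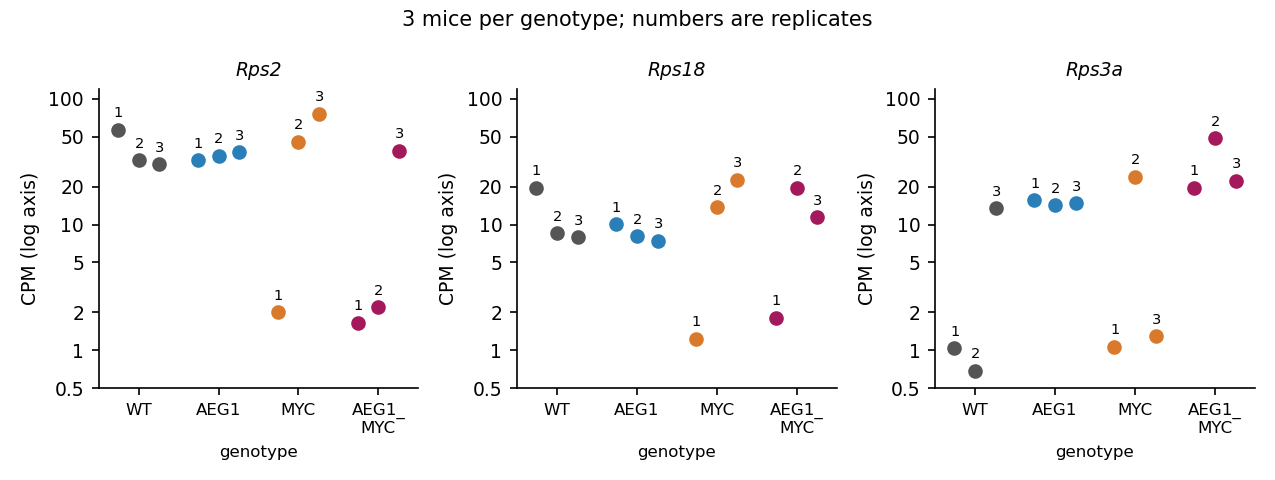
CPM of Rps2, Rps18 and Rps3a in 12 libraries on a log axis, with replicate numbers. Each gene has a low set of libraries (at most 2.19 CPM) and a high set (at least 7.41 CPM). The 3 low libraries of Rps2 and the 2 of Rps18 carry the c-Myc transgene, and the 4 of Rps3a lack the AEG-1 transgene.

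Genes that work with these proteins were read from lists in the average c-Myc comparison, where 50.6% of all tested genes lay above 0 and 6.53% had an unadjusted p under 0.05 and a higher level. Other mRNAs with a TOP motif, such as elongation factors and snoRNA host genes, had a median of 0.31, and all 22 tested lay above 0. Of these, 17 had an unadjusted p under 0.05, and Gas5, a snoRNA host, rose (0.61 ± 0.08, adjusted p = 0.0226, edgeR). Gas5 stood at 50, 55.5 and 46.8 CPM in WT livers, 51.8, 48.7 and 39.4 in AEG1 livers, 77.8, 83.0 and 88.4 in MYC livers and 68.9, 65.8 and 65.1 in AEG1_MYC livers. Its MYC libraries were the highest of the 12. Eef1b2, a subunit of the elongation factor that exchanges nucleotide, gave 0.69 ± 0.11 (adjusted p = 0.0501, edgeR). Pabpc1, the poly(A)-binding protein, gave 0.41 ± 0.08 and the snoRNA host Snhg8 0.39 ± 0.09. Snhg8 gave 0.66 ± 0.13 in MYC against WT and 0.12 ± 0.13 in AEG1_MYC against AEG1.

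The 40 ribosome assembly genes had a median of 0.20, with 35 above 0, 8 at an unadjusted p under 0.05, all higher, and 0 called. Nhp2, of the snoRNPs that modify rRNA, gave 0.67 ± 0.13 and Npm1, a nucleolar chaperone that also stands in the TOP list, 0.52 ± 0.11. Nop10, a partner of Nhp2, gave 0.08 ± 0.07 and Taf1b, of the RNA polymerase I machinery, 0.02 ± 0.13. Taf1b gave -0.39 ± 0.18 in MYC against WT and 0.43 ± 0.18 in AEG1_MYC against AEG1. Nop10 gave 0.22 ± 0.1 and -0.05 ± 0.1 in the same order. In the average comparison, ribosomal proteins with other symbols (7 genes) had a median of 0.07. Gnb2l1, the scaffold protein Rack1 on the small subunit, gave 0.56 ± 0.10 without overlap. Rpl22l1, the paralog of Rpl22, gave 0.85 ± 0.17 with overlap in 1 library, AEG1_MYC replicate 1 (10.7 CPM, against 11.2 in WT replicate 2). Fau (0.07 ± 0.16), which encodes a fusion with a ubiquitin-like protein, and Rpl7l1 (0.04 ± 0.08) overlapped as well.

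The 17 genes that control TOP translation had a median of -0.05, with 5 above 0, 0 called and 1 at an unadjusted p under 0.05 in each direction. These were Eif4ebp1, the translation inhibitor under mTOR, at 0.36 ± 0.09 and Pdcd4, an inhibitor of the helicase eIF4A, at -0.35 ± 0.15. Eif4ebp1 gave 0.14 ± 0.13 in MYC against WT and 0.58 ± 0.13 in AEG1_MYC against AEG1. Pdcd4 gave -0.08 ± 0.21 and -0.62 ± 0.21 in the same order. In the average comparison, the kinase gene Mtor gave -0.27 ± 0.13, Rictor -0.05 ± 0.08, Deptor -0.08 ± 0.12 and the S6 kinase gene Rps6kb1 0.12 ± 0.09. The list of 13 genes for ribosomal stress, Trp53 (p53) itself and p53 targets, had a median of 0.26, with 11 above 0 and 0 called. At an unadjusted p under 0.05 were 3: Gtse1 (1.33 ± 0.32, on only 0.223 to 3.14 CPM), Sesn2 (0.52 ± 0.15) and Phlda3 (0.47 ± 0.21). Gtse1 gave 0.35 ± 0.45 in MYC against WT and 2.31 ± 0.46 in AEG1_MYC against AEG1. In the same order Sesn2 gave 0.37 ± 0.21 and 0.67 ± 0.21, and Phlda3 0.28 ± 0.29 and 0.66 ± 0.3. In the average comparison, Mdm2 (-0.05 ± 0.09) and Trp53inp1 (-0.04 ± 0.25) lay below 0. Bax gave 0.19 ± 0.10 and Zmat3 0.12 ± 0.10. The 76 mitochondrial ribosomal proteins had a median of 0.03 and the 71 respiratory chain subunits one of -0.03.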

How the data were processed

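The authors deposited raw read counts per gene, 1 table per library. Tools named in the submitters' processing notes are CASAVA 1.8.2, TopHat2 2.0.7 and HTSeq, with the build mm9; the HTSeq version, gene annotation and use of strand are not given in the sources used here. Reads of overlapping or antisense genes therefore cannot be told apart. The 5 summary lines, among them alignments at several places, stayed out of library sizes and tests.

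The tests used edgeR 4.0.16 under R 4.3.3: filterByExpr, TMM scaling (factors 0.914 to 1.19), 1 coefficient per genotype over 12 libraries, robust quasi-likelihood F test, two-sided, Benjamini-Hochberg adjustment over 13684 genes, called at 0.05. DESeq2 1.42.0 and limma 3.58.1 were alternatives. Log2 CPM used a prior count of 2. The analysis was tested on simulated data. Replicate numbers follow accession order within a genotype. No 2 replicates agreed within counting noise (chi-square per degree of freedom 35.8 to 364).

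The member genes, lists, tests and motifs were chosen with earlier results of these data known. Named genes were the called members of each comparison or, with none called, the 5 with the lowest p; the stalk genes, Rpsa, Rps6, Rpl5, Rpl11 and 4 paralog pairs; the highest and lowest by CPM; and up to 4 of each list. Some of the genes so chosen are not reported here. Other genes were named after their values were seen. Uniqueness compared 50-base stretches of 1 mRNA per gene with all GENCODE M21 transcripts (GRCm38), not with mm9. Promoter sequences are RefSeq's (GRCm38.p6).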

Additional observations from a re-analysis of the deposited data

How the results depend on the processing

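No paired analysis was possible because the replicate numbers were given in accession order and pair no mice. Over all scalings, filters, tools and left-out libraries the median of the members stayed above 0 in the 4 comparisons that contain the c-Myc difference. With raw totals in place of TMM, the median of all genes itself moved, to 0.19 in AEG1_MYC against WT and 0.15 in AEG1_MYC against AEG1, and the members' medians were 0.74 and 0.66, or 0.55 and 0.52 above all genes. Leaving out 1 library at a time gave medians of 0.38 to 0.64 in AEG1_MYC against WT, 0.36 to 0.64 in AEG1_MYC against AEG1 and -0.14 to 0.12 in the interaction. Counts of called members were less stable. In the average c-Myc comparison, 3 with TMM, they were 0 with RLE or upper-quartile scaling, 0 without a filter, 7 with raw totals, 5 with a filter at 1 CPM, 33 with DESeq2, 5 with limma, 0 to 9 with 1 library left out and 1 with AEG1_MYC replicate 3 alone. DESeq2 called 6 in MYC against WT, 23 in AEG1_MYC against WT, 22 in AEG1_MYC against AEG1 and 27 in the joint test, where edgeR called 0; with 1 library left out edgeR called 0 to 9 in AEG1_MYC against WT, 0 to 6 in AEG1_MYC against AEG1 and 0 to 3 in the joint test. The cause was not tested. The count of all genes called was taken only for edgeR with TMM on all 12 libraries, DESeq2 and limma. For the other settings these counts describe how the calls depend on processing and cannot be set against all genes. With raw totals the median of all genes in the average comparison was 0.13. Signs turned for Rpl9 in AEG1_MYC against MYC (-0.09 with replicate 3 alone), Rpl10 in the average comparison (0.06 with raw totals, 0.04 without AEG1 replicate 1, and -0.19 to 0.04 over all left-out libraries), and in MYC against WT for Fau (-0.03 without WT replicate 1, and -0.03 to 0.32 over all) and Phlda3 (-0.01 without WT replicate 2, and -0.01 to 0.53 over all). With 1 AEG1_MYC library left, its spread is taken to equal that of the remaining genotypes. The medians without Rps2, Rps3a and Rps18 and over genes with at least 50% unique stretches were chosen after seeing the data. Depth limits the 29 genes under 100 reads per library, whose median SE was 0.22 against 0.13 for the others. The fit of only the compared libraries was not run for comparisons that use all 12.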

Other observations

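The low and high libraries of Rps2, Rps18 and Rps3a were set beside other genes, with correlations over the 12 libraries as a description only. Of the 20 genes whose log2 CPM followed that of Rps2 most closely in either direction, 17 had a known chromosome and 6 of them lay on chromosome 17, where Rps2 lies: H2-Q8, Ccnf, C4b, Uhrf1bp1, Unkl and Tagap. For Rps18, also on chromosome 17, 8 of 16 did so: Wtap, Rnps1, Dact2, H2-Bl, Vars2, H2-T24, Nfkbie and Rab11b. Chromosome 17 held 4.95% of the tested genes with a known chromosome. For Rps3a, on chromosome 3, it was 3 of 19 (Itga10, Tmod4 and Gmps), where chromosome 3 held 4.97%. H2-Q8, H2-T24 and H2-Bl are major histocompatibility genes.

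Among the libraries with the transgene, MYC replicate 1 was lowest in both Myc (23.4 CPM) and the member median (0.30). AEG1_MYC replicate 2 was highest in both. Between them the order of Myc was not the order of the ribosomal protein genes, and a relation of the member median to Myc was not tested. In MYC, replicate 3 had the highest Myc (53.8 CPM) and a member median of 0.46, and replicate 2 had 30.5 CPM and a median of 0.62. In AEG1_MYC, replicate 2 had 165 CPM and 0.80, replicate 1 had 73.0 CPM and 0.34, and replicate 3 had 58.4 CPM and 0.41. Myc in AEG1_MYC lay above MYC in every library (2.75-fold, adjusted p = 0.2, edgeR), while the member medians overlapped.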
